A study of Mus musculus with 12 samples.

Results

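The 51 genes described here encode the proteins that copy DNA, supply its building blocks, and repair it. They were chosen by symbol, from a list of replication, nucleotide synthesis, and repair genes, and not by a rule on their values. Earlier results of these data were known when the list was chosen. All 51 were found among the 26608 genes counted in every library. The sequenced RNA came from CD4+ YFP(FOXP3)- T cells of mice 14 weeks old. Cells of the spleen and of the cervical and inguinal lymph nodes were pooled before sorting, and each of the 3 groups had 4 libraries. WT mice carried the *Foxp3Cre* allele alone. DKO-moderate and DKO-severe mice carried the same Cre allele with both copies of *Tet2* and *Tet3* floxed (Foxp3Cre Tet2/3 flox/flox), and were told apart in the study by fewer or more cells in spleen and lymph nodes. TET2 and TET3 are enzymes that oxidise methylated cytosine. The Cre is expressed from the *Foxp3* locus, so that the floxed alleles are deleted in cells that have expressed *Foxp3*. The sorted YFP- cells therefore hold ex-Treg cells, which have lost FOXP3, together with conventional CD4+ T cells, and the counts do not separate them. The study notes that this Cre can also act at a low level outside Treg cells.

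DNA replication begins when the origin recognition complex (ORC), CDC6, and CDT1 load the MCM2-7 ring onto DNA in G1. In S phase, CDC45 and GINS join the ring to form the active helicase, and polymerase alpha with primase, polymerase delta, and polymerase epsilon copy the strands behind it. The sliding clamp PCNA holds polymerase delta and polymerase epsilon on DNA. Most T cells in a resting mouse are out of the cell cycle and carry little RNA for many of these proteins, and activation through the T cell receptor raises it, in part through E2F transcription factors that bind near the start sites of these genes.

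Between 29254260 and 42133536 reads of a library fell on genes. Levels are given as CPM, the count of a gene scaled to a fixed library total with edgeR's TMM factors, and different genes are set against each other as CPM per kb of exon or, within a library, as a ratio of reads whose change between groups is followed. All 51 genes passed the filter on low counts and were among the 16035 genes tested. In bulk RNA a larger share of cycling cells and more RNA per cell cannot be told apart. The CD4 T cell markers, of which 6 of 8 were found, summed to 3698 to 4308 CPM for WT, 4389 to 4519 CPM for DKO-moderate, and 3543 to 3997 CPM for DKO-severe. Markers of other cell types were uneven between libraries. The 8 neutrophil markers summed to at most 3.44 CPM in any WT or DKO-moderate library but to 2233, 819, 22.8, and 9.26 CPM in DKO-severe 1 to 4. The 8 B cell markers reached 211 CPM in WT 3 and 49.8 to 319 CPM in DKO-severe, and were at most 4.22 CPM in the other 7 libraries. Plasma cell genes summed to 61.7 to 156 CPM for WT, 88.1 to 134 for DKO-moderate, and 197 to 346 for DKO-severe. Erythroid genes summed to 69.8 to 98.3, 69.9 to 111, and 110.4 to 185 CPM. A single gene, *Tfrc*, made up most of the erythroid sum, with 81.3 of 89.7 CPM in WT 1 and 130.1 of 143 CPM in DKO-severe 4. *Xbp1* alone gave 48.6 of 61.7 CPM of the plasma cell sum in WT 1 and 134 of 209 CPM in DKO-severe 4. These sums therefore need not measure reads from other cells. Granulocyte progenitor genes were at most 0.0323 CPM in WT, 11.7 CPM in DKO-moderate 4, at most 4.63 CPM in the other DKO-moderate libraries, and up to 12.5 CPM in DKO-severe, where every library was above every WT library. The part of these cell types in the results was not tested. The 4 Y-linked markers were near 0 in WT 2, DKO-moderate 2, DKO-moderate 4, and DKO-severe 3 and between 369.8 and 556 CPM in the others, so the groups did not differ in the number of such libraries by more than 1.

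In DKO-severe against WT, 41 of the 51 genes were higher and 2 were lower at an adjusted p under 0.05 in edgeR's quasi-likelihood test, and 8 did not pass. Over all genes tested, 26.6% were higher and 25.9% lower. Scaling by library size alone moved the median of all genes up by 0.18 and made 66.5% of all calls higher, in place of 50.7%, and 47 of the 51 genes were then higher. The median log2 fold change of the 51 genes was 1.06, against -0.0054 for all genes. The 4 DKO-severe libraries all lay above the 4 WT libraries for 38 of the 51 genes, which held for 24.6% of all genes. The largest rises were those of *Mcm10*, *Tk1*, *Clspn*, *Orc1*, *Chaf1a*, and *Rrm2*, with log2 fold changes from 3.38 to 2.86. The genes that fell were *Rpa1* and *Timeless*. *Gins3*, *Cdt1*, *Pola2*, *Pold1*, *Pold2*, *Pole2*, *Rpa3*, and *Chaf1b* did not pass. DESeq2 called 46 genes higher and limma voom 44. Of the 8, *Gins3*, *Pola2*, *Pold1*, *Rpa3*, and *Chaf1b* passed as higher in DESeq2, and *Gins3*, *Rpa3*, and *Chaf1b* in limma voom. Without DKO-severe 1 and 2, the libraries with the most neutrophil reads, 40 genes were higher and 1 was lower. With the mean levels of the neutrophil and B cell lists as terms in the model, 31 were higher and 0 lower, at a median log2 fold change of 1.18.

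**Figure D1:**
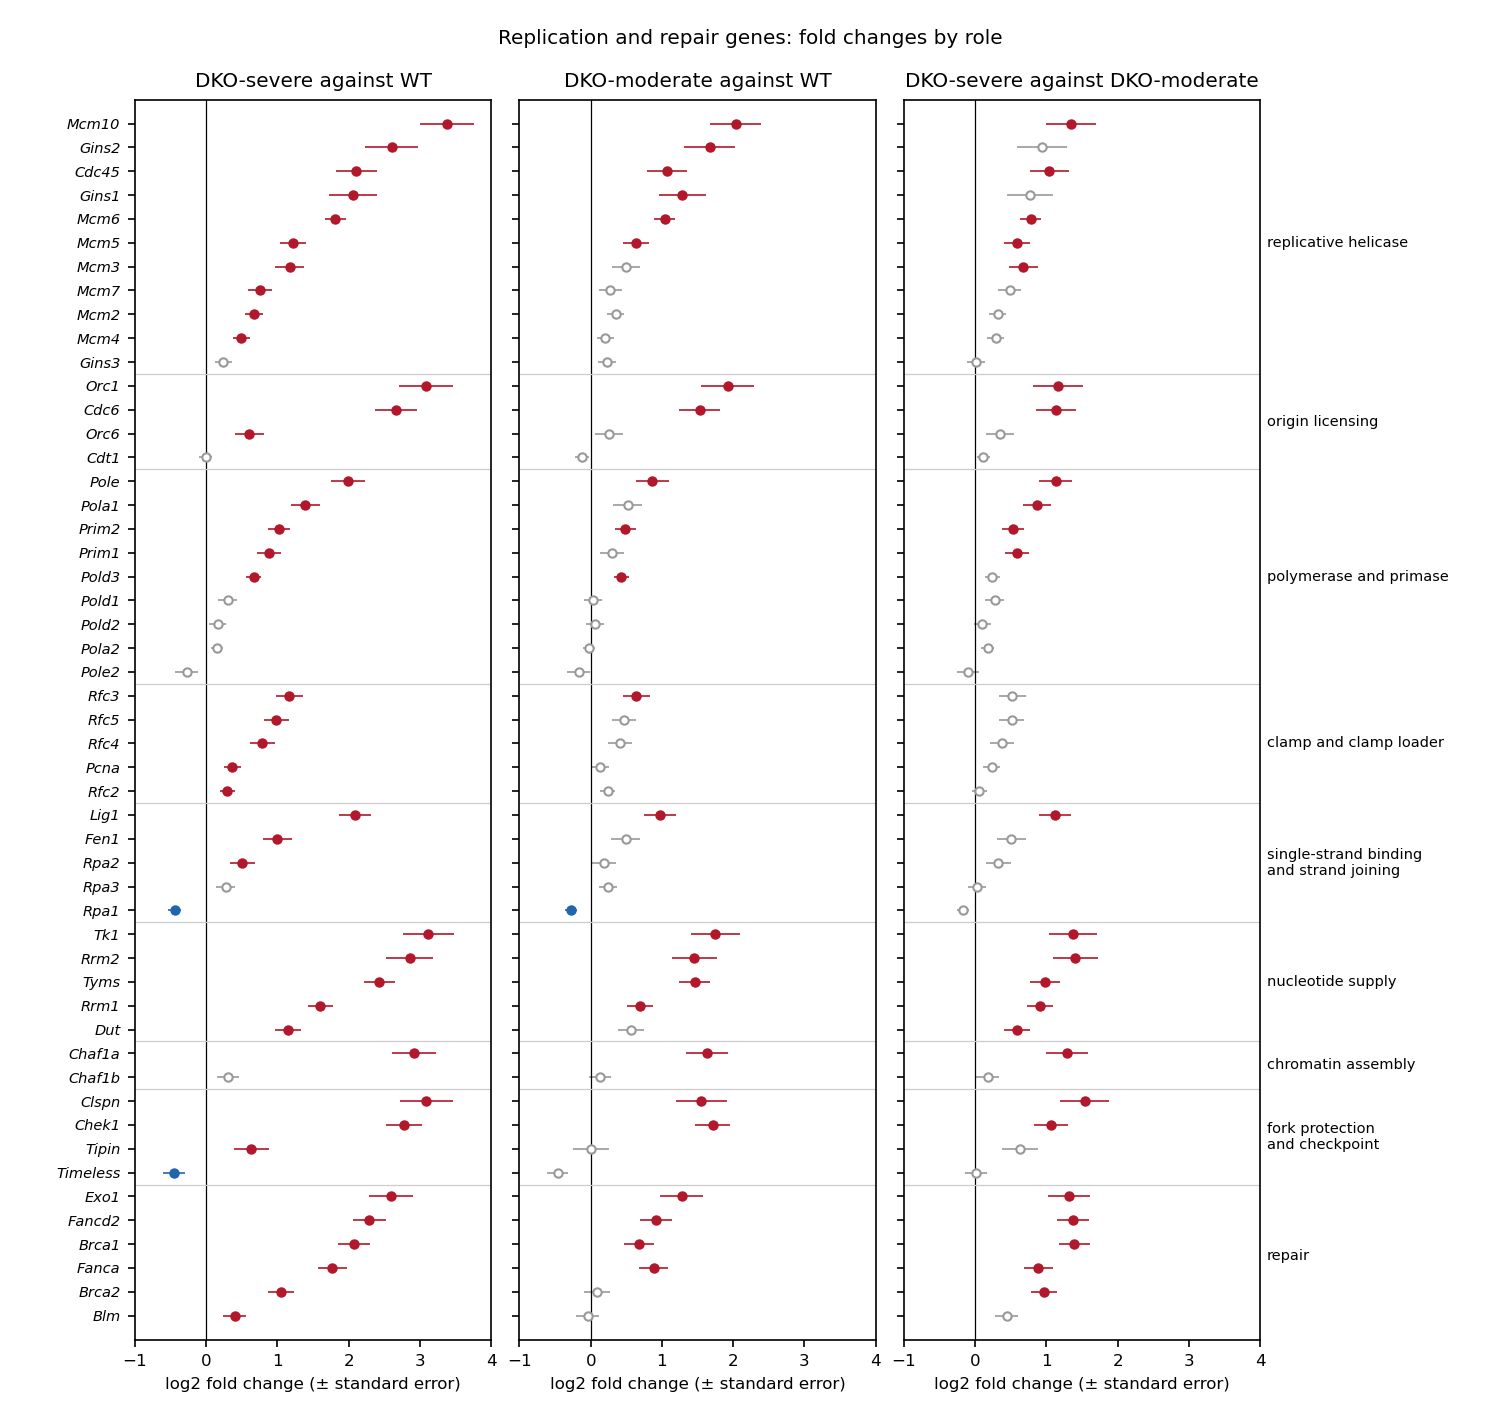
Log2 fold changes (x axis) of the 51 genes (rows, grouped by role and ordered within a role by the first panel) in the 3 comparisons, with bars for the standard error from edgeR. Filled red points were higher and filled blue points lower at an adjusted p under 0.05, and open grey points did not pass. In DKO-severe against WT 41 points are red and 2, *Rpa1* and *Timeless*, are blue.

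Promoter sequence is shown for a few of these genes because many rose together and because E2F-type motifs are the best known shared feature of replication gene promoters. RefSeq windows from 250 bases before a start site to 50 bases after it (GRCm38.p6) were found for 42 of the 51 genes, and not for *Mcm4*, *Gins1*, *Gins2*, *Prim2*, *Pole*, *Rfc2*, *Tipin*, *Fancd2*, and *Exo1*. The motifs TTTGGCGC, TTTCGCGC, and TTCCCGCC were searched on both strands, and the first pair can overlap as TTTGGCGCGAAA or its reverse complement. At least 1 of the 3 motifs was found in 18 of the 42 genes (42.9%), against 3.39% of all 27025 genes with windows and 6.03% of the 10675 such genes that were tested here. The first stretch below is upstream of *Mcm6*, which rose most of the 6 MCM2-7 genes, and the sites of 30 bases after it are from genes that rose (*Mcm5*, *Orc1*, *Rrm1*, *Chaf1a*, *Clspn*, *Chek1*) and genes that did not pass (*Cdt1*, *Pole2*). They were picked after the values had been seen. All read 5′ to 3′ along the gene, with the motifs in capitals.
*Mcm6* (chr1:128359736-128359855, minus strand): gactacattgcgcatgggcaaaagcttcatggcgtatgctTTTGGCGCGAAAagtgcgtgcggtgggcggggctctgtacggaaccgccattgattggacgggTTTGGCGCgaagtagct
*Mcm5* (chr8:75109347-75109376, plus strand): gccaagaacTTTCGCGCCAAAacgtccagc
*Orc1* (chr4:108579416-108579445, plus strand): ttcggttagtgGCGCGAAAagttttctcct
*Rrm1* (chr7:102441617-102441646, plus strand): aggagaactcgTTCCCGCCaggtccgcttt
*Chaf1a* (chr17:56040358-56040387, plus strand): ggttgccgcggTTCCCGCCaaatacgagcg
*Clspn* (chr4:126556990-126557019, plus strand): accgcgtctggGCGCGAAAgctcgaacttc
*Chek1* (chr9:36726609-36726638, minus strand): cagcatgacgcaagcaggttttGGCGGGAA
*Cdt1* (chr8:122568035-122568064, plus strand): gggaactaccttTTTGGCGCcatggcgcaa
*Pole2* (chr12:69228162-69228191, minus strand): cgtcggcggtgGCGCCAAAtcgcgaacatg

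*Mcm6* holds TTTGGCGC at 110 and at 47 bases before its start site, the first of them overlapping TTTCGCGC on the other strand, and *Mcm5* holds the same overlapping pair read the other way. Genes with a motif lay on both sides of the threshold. Motifs were found in 15 of the 32 genes with a window that were higher in DKO-severe and in 3 of the 10 that were not, and *Mcm10*, *Tk1*, and *Rrm2*, among the largest rises, have none of the 3 in their windows. By motif, TTTGGCGC was found in 4 of the 32 and 2 of the 10, TTTCGCGC in 7 and 0, and TTCCCGCC in 7 and 1. Against WT, the DKO-severe median log2 fold change was 1.20 for the 18 genes with a motif and 0.83 for the 24 without. Over all genes tested it was 0.034 with a motif and 0.0089 without. CCAAT, the NF-Y box, was in 59.5% of the 42 genes, in 41.1% of all genes, and in 42.8% of those tested. TTTGAA, which occurs in cell cycle homology regions, was in 11.9%, 20.2%, and 14.6%. These are matches of letters and not measured binding.

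The replicative helicase genes rose unevenly in DKO-severe, with 10 of 11 past the threshold and a median log2 fold change of 1.22. *Mcm10*, whose product helps to start the assembled helicase, was at 1.21, 1.36, 2.30, and 1.91 CPM for WT, 4.92, 6.18, 5.22, and 11.5 CPM for DKO-moderate, and 17.8, 10.02, 15.7, and 27.1 CPM for DKO-severe. Every DKO library was above every WT library, and only DKO-moderate 4 reached into the DKO-severe range. This was a log2 fold change of 3.38 (edgeR adjusted p = 2.9e-05, standard error 0.38) in DKO-severe and 2.04 (edgeR adjusted p = 0.00308) in DKO-moderate. *Mcm6*, a subunit of the MCM2-7 ring, was at 113, 109, 128, and 130.1 CPM for WT, 205, 269, 212, and 299.7 CPM for DKO-moderate, and 474, 331, 428, and 458 CPM for DKO-severe. The 3 groups did not overlap. The change in *Mcm6* was 1.81 (edgeR adjusted p = 5.66e-06, standard error 0.15) on the log2 scale in DKO-severe against WT and 0.78 (edgeR adjusted p = 0.00554) against DKO-moderate. *Mcm2*, *Mcm3*, *Mcm4*, *Mcm5*, and *Mcm7* also passed in DKO-severe against WT, at smaller log2 fold changes of 0.49 for *Mcm4* to 1.22 for *Mcm5*. *Cdc45* and the GINS genes *Gins1* and *Gins2*, which complete the active helicase, rose by 2.06 to 2.61 on the log2 scale. *Gins3*, another GINS subunit, was at 10.5, 9.97, 9.14, and 8.94 CPM for WT, 11.6, 9.83, 11.2, and 12.5 CPM for DKO-moderate, and 10.8, 10.3, 12.2, and 12.3 CPM for DKO-severe, and the groups overlapped. The value for DKO-severe against WT, 0.24 (edgeR adjusted p = 0.119, standard error 0.12), did not pass in edgeR, and passed in DESeq2 at 0.33 (adjusted p = 0.00627) and in limma voom (adjusted p = 0.0381).

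Of the origin licensing genes, *Orc1*, *Cdc6*, and *Orc6* were higher in DKO-severe and *Cdt1* was not. *Orc1*, the largest ORC subunit, was at 0.517, 0.516, 0.891, and 1.09 CPM for WT, 2.07, 2.58, 2.38, and 4.45 CPM for DKO-moderate, and 8.18, 3.59, 6.52, and 7.42 CPM for DKO-severe. Every DKO library lay above every WT library. *Orc1* had a log2 fold change of 3.08 (edgeR adjusted p = 5.06e-05, standard error 0.38) in DKO-severe and 1.92 (edgeR adjusted p = 0.00447) in DKO-moderate. *Cdt1*, which brings MCM2-7 to origins together with CDC6, was at 49.9, 47.3, 44.04, and 49.4 CPM for WT, 42.6, 39.5, 43.7, and 49.2 CPM for DKO-moderate, and 49.9, 42.1, 44.8, and 52.4 CPM for DKO-severe. All 3 groups overlapped, and the log2 fold change in DKO-severe was -0.0098 (edgeR adjusted p = 0.935, standard error 0.092). Its WT level per kb was the highest of the licensing genes, 15.2 CPM per kb against 0.217 for *Orc1*. *Cdc6*, its partner in loading, had 2.67 (edgeR adjusted p = 2.85e-05, standard error 0.30). *Orc6* had 0.61 (edgeR adjusted p = 0.0219, standard error 0.20).

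Polymerase and primase genes divided by subunit, with 5 of 9 higher in DKO-severe, none lower in edgeR, DESeq2, or limma voom (0 also at an unadjusted p under 0.05), and a median log2 fold change of 0.67. *Pole*, the catalytic subunit of polymerase epsilon, was at 10.6, 9.84, 12.4, and 15.7 CPM for WT, 18.2, 21.9, 22.7, and 25.6 CPM for DKO-moderate, and 51.1, 29.98, 42.7, and 69.96 CPM for DKO-severe. The 3 groups did not overlap. *Pole* changed by 1.996 (edgeR adjusted p = 3.97e-05, standard error 0.24) on the log2 scale in DKO-severe against WT and 1.13 (edgeR adjusted p = 0.00777) against DKO-moderate. *Pole2*, the second subunit of the same enzyme, was at 20.9, 14.7, 19.7, and 18.8 CPM for WT, 18.02, 12.4, 16.5, and 18.9 CPM for DKO-moderate, and 16.2, 13.2, 14.1, and 17.9 CPM for DKO-severe. All groups overlapped, and the log2 fold change was -0.27 (edgeR adjusted p = 0.166, standard error 0.16). An exon of another annotated gene, *Gm49384*, overlaps *Pole2* over 245 bases on the same strand, where reads may have been left uncounted. *Pola1*, the catalytic subunit of polymerase alpha, rose by 1.39 (edgeR adjusted p = 0.000168), and *Pola2*, its accessory subunit, was at 45.1, 39.1, 40.9, and 42.9 CPM for WT, 40.3, 37.4, 41.8, and 45.96 CPM for DKO-moderate, and 45.2, 43.3, 46.1, and 51.96 CPM for DKO-severe, with overlapping groups and a log2 fold change of 0.15 (edgeR adjusted p = 0.159, standard error 0.087). The primase genes *Prim1* and *Prim2* had log2 fold changes of 0.88 and 1.02, both past the threshold. Within polymerase delta, *Pold3* had 0.67 (edgeR adjusted p = 0.00031). *Pold1*, its catalytic subunit, was at 58.5, 56.2, 45.5, and 50.5 CPM for WT, 48.8, 50.2, 55.05, and 61.1 CPM for DKO-moderate, and 65.5, 54.1, 58.9, and 81.2 CPM for DKO-severe, where DKO-severe 1 and 4 stood above all WT and DKO-moderate libraries and DKO-severe 2 and 3 did not. The value against WT, 0.30 (edgeR adjusted p = 0.0673, standard error 0.13), did not pass. It passed in DESeq2 (adjusted p = 0.0117), and in edgeR when DKO-moderate 4, DKO-severe 2, or DKO-severe 3 was left out. *Pold2* was at 41.1, 40.1, 35.8, and 38.5 CPM for WT, 35.8, 37.5, 38.3, and 50.3 CPM for DKO-moderate, and 47.4, 36.4, 40.99, and 48.9 CPM for DKO-severe, with overlapping groups and a log2 fold change of 0.16 (edgeR adjusted p = 0.294, standard error 0.12). DESeq2 called 7 of the 9 genes higher.

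All 5 genes of the sliding clamp and its loader passed in DKO-severe, with a median log2 fold change of 0.79. *Pcna*, which encodes the clamp, had the highest level per kb of all 51 genes, 85.9 for WT, 94.3 for DKO-moderate, and 111 for DKO-severe CPM per kb. Its libraries were at 193, 233, 216, and 183 CPM for WT, 217, 218, 209, and 261 CPM for DKO-moderate, and 293, 209.6, 261, and 299.9 CPM for DKO-severe, and DKO-severe 2 fell within the WT range. *Pcna* had a log2 fold change of 0.37 (edgeR adjusted p = 0.0251, standard error 0.12), and did not pass without WT 1, WT 4, or DKO-severe 1, nor with the neutrophil and B cell terms. Reads that also match the annotated pseudogenes *Pcna-ps1* and *Pcna-ps2* would not have been counted. *Rfc3*, a subunit of the clamp loader RFC, was at 10.1, 9.97, 9.29, and 9.73 CPM for WT, 12.5, 15.4, 12.1, and 21.04 CPM for DKO-moderate, and 23.6, 17.4, 19.02, and 27.6 CPM for DKO-severe, with every DKO library above WT. The change was 1.17 (edgeR adjusted p = 0.000346, standard error 0.19) on the log2 scale. *Rfc2* changed least, at 53.6, 49.2, 47.5, and 49.3 CPM for WT, 55.8, 53.4, 52.7, and 73.4 CPM for DKO-moderate, and 60.2, 58.8, 57.5, and 68.6 CPM for DKO-severe, and the DKO-severe libraries stood just above WT. For *Rfc2* it was 0.30 (edgeR adjusted p = 0.0359, standard error 0.11), which did not pass without any one of WT 2, WT 3, WT 4, DKO-severe 1, and DKO-severe 4. *Rfc4* and *Rfc5* had 0.79 and 0.98.

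The genes that bind single strands and join fragments moved in opposite directions. *Rpa1*, the large subunit of the single-strand binding protein RPA, was at 291, 271, 270.0, and 284 CPM for WT, 231, 201, 263, and 225 CPM for DKO-moderate, and 203, 189.95, 207, and 219 CPM for DKO-severe. Every DKO library was below every WT library. The log2 fold change was -0.45 (edgeR adjusted p = 0.00102, standard error 0.085) in DKO-severe and -0.28 (edgeR adjusted p = 0.0434, standard error 0.085) in DKO-moderate. The call in DKO-moderate was lost without any one of the 4 WT libraries, DKO-moderate 1, 2, or 4, or DKO-severe 1, at log2 fold changes from -0.29 to -0.22. With the neutrophil and B cell terms *Rpa1* did not pass in DKO-severe (edgeR adjusted p = 0.251), at a log2 fold change of -0.28. *Rpa2*, the middle subunit, was higher, with 0.50 (edgeR adjusted p = 0.0295). *Rpa3*, the small subunit, was at 22.6, 18.3, 18.3, and 18.04 CPM for WT, 22.3, 22.4, 19.2, and 27.5 CPM for DKO-moderate, and 24.4, 19.9, 23.7, and 25.3 CPM for DKO-severe, with overlapping groups and a log2 fold change of 0.27 (edgeR adjusted p = 0.095, standard error 0.13). *Lig1*, the ligase that joins Okazaki fragments, was at 26.5, 26, 23.6, and 29.2 CPM for WT, 35.8, 49.9, 45.98, and 75.2 CPM for DKO-moderate, and 119, 76.1, 111, and 144 CPM for DKO-severe. The 3 groups did not overlap, although DKO-severe 2 stood only just above DKO-moderate 4. *Lig1* had a log2 fold change of 2.09 (edgeR adjusted p = 2.25e-05, standard error 0.23) against WT and 1.12 (edgeR adjusted p = 0.00688) against DKO-moderate. *Fen1*, which trims the fragments before ligation, had 0.998 (edgeR adjusted p = 0.00157) in DKO-severe against WT.

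The nucleotide supply genes had the highest median of the 9 roles, 2.43 in DKO-severe and 1.45 in DKO-moderate. All 5 passed in DKO-severe against both other groups, and 4 passed in DKO-moderate. *Tk1*, thymidine kinase of the salvage pathway, was at 4.45, 2.94, 3.65, and 6.26 CPM for WT, 9.28, 11.7, 12.9, and 24.3 CPM for DKO-moderate, and 42.7, 21.5, 36.7, and 49.5 CPM for DKO-severe. All DKO libraries lay above WT, and DKO-moderate 4 was above DKO-severe 2. For *Tk1* this gave 3.12 (edgeR adjusted p = 3.36e-05, standard error 0.36) on the log2 scale in DKO-severe and 1.75 (edgeR adjusted p = 0.00526) in DKO-moderate. *Rrm1*, the large subunit of ribonucleotide reductase, was at 54.8, 45.8, 57.3, and 56.4 CPM for WT, 75.1, 78.7, 87.5, and 105 CPM for DKO-moderate, and 177, 112, 147, and 216 CPM for DKO-severe, with no overlap between groups. The change in *Rrm1* was 1.60 (edgeR adjusted p = 2.93e-05, standard error 0.18) on the log2 scale against WT and 0.91 (edgeR adjusted p = 0.00676) against DKO-moderate. *Rrm2*, the small subunit, which in cycling cells is made in S phase, had 2.86 (edgeR adjusted p = 3.47e-05, standard error 0.33). *Tyms*, thymidylate synthase, had 2.43 (edgeR adjusted p = 9.27e-06, standard error 0.22). *Dut*, which removes dUTP, rose least, at 42.4, 34.6, 33.3, and 34.4 CPM for WT, 47.3, 47.1, 44.5, and 74.9 CPM for DKO-moderate, and 90.5, 57.2, 84.6, and 88.7 CPM for DKO-severe, and was above WT in every DKO library. *Dut* had a log2 fold change of 1.15 (edgeR adjusted p = 0.000308, standard error 0.19) in DKO-severe, and the value in DKO-moderate, 0.56 (edgeR adjusted p = 0.0533), did not pass. It passed in DESeq2 (adjusted p = 0.0164), in limma voom (adjusted p = 0.0443), and in edgeR when DKO-moderate 3 or DKO-severe 2 was left out. *Tyms-ps*, an annotated pseudogene of *Tyms*, had 0 reads in every library, and reads that matched both places would not have been counted.

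Chromatin assembly factor 1 (CAF-1) places histones on new DNA, and the genes of its 2 subunits measured here differed. *Chaf1a* was at 5.26, 3.68, 4.34, and 6.29 CPM for WT, 10.8, 13.02, 11.9, and 24.98 CPM for DKO-moderate, and 41.4, 22.8, 35.7, and 48.2 CPM for DKO-severe. Every DKO library was above WT. Its change was 2.92 (edgeR adjusted p = 2.15e-05, standard error 0.31) on the log2 scale in DKO-severe and 1.63 (edgeR adjusted p = 0.00371) in DKO-moderate. *Chaf1b* was at 18.02, 15.8, 15.3, and 20.8 CPM for WT, 17.1, 17.3, 16.1, and 25.99 CPM for DKO-moderate, and 23.2, 19.3, 21.1, and 22.7 CPM for DKO-severe, where DKO-moderate 4 was the highest library of all and the groups overlapped. The value in DKO-severe, 0.30 (edgeR adjusted p = 0.126, standard error 0.16), did not pass. It passed in DESeq2 (adjusted p = 0.0413), in limma voom (adjusted p = 0.0395), and also with DKO-moderate 4 left out in edgeR (adjusted p = 0.0245).

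At the fork, claspin (*Clspn*) links the replication machinery to the checkpoint kinase CHK1 (*Chek1*), and TIMELESS and TIPIN form a dimer that steadies the fork. *Clspn* was at 2.82, 3.07, 3.08, and 6.07 CPM for WT, 6.88, 9.87, 11, and 16.5 CPM for DKO-moderate, and 32.97, 18.2, 28.8, and 48.5 CPM for DKO-severe. The groups did not overlap. *Clspn* had a log2 fold change of 3.09 (edgeR adjusted p = 4.1e-05, standard error 0.37) in DKO-severe against WT and 1.54 (edgeR adjusted p = 0.0114) against DKO-moderate. *Chek1* had 2.78 (edgeR adjusted p = 9.87e-06, standard error 0.25) in DKO-severe and 1.71 (edgeR adjusted p = 0.000975) in DKO-moderate, and its groups did not overlap either. *Timeless* was at 63.4, 51.6, 44.6, and 52.1 CPM for WT, 32.7, 36.5, 37.96, and 46.04 CPM for DKO-moderate, and 39.03, 30.7, 36.3, and 48.4 CPM for DKO-severe, highest in WT 1 and lower on average in both DKO groups. DKO-severe 4 and DKO-moderate 4 lay within the WT range. The log2 fold change was -0.45 (edgeR adjusted p = 0.0246, standard error 0.15) in DKO-severe, and the like value in DKO-moderate, -0.47 (edgeR adjusted p = 0.0539, standard error 0.15), did not pass. The DKO-moderate value passed in DESeq2 (adjusted p = 0.0224), in limma voom (adjusted p = 0.00796), and in edgeR with the neutrophil and B cell terms and without WT 3, DKO-moderate 4, DKO-severe 2, or DKO-severe 4. The call in DKO-severe was lost without WT 1, without DKO-severe 2, and without DKO-severe 3 (log2 fold changes of -0.36, -0.33, and -0.39), and with DESeq2's size factors, library size alone, or the neutrophil and B cell terms. *Tipin*, which encodes the partner of TIMELESS, changed in the opposite direction, by 0.63 (edgeR adjusted p = 0.0485, standard error 0.25), with groups that overlapped.

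All 6 repair genes were higher in DKO-severe, with a median log2 fold change of 1.92. *Exo1*, a nuclease of mismatch repair and strand resection, had the lowest level per kb of the 51 genes in WT, 0.192 CPM per kb. It was at 1.55, 1.32, 1.70, and 1.89 CPM for WT, 3.03, 3.62, 2.83, and 6.20 CPM for DKO-moderate, and 9.73, 6.45, 8.95, and 13.9 CPM for DKO-severe, with no overlap between groups. This was a log2 fold change of 2.59 (edgeR adjusted p = 4.06e-05, standard error 0.31). *Brca1*, *Fanca*, and *Fancd2*, of homologous recombination and the repair of crosslinks, had log2 fold changes of 1.77 for *Fanca* to 2.29 for *Fancd2*, and their groups did not overlap. *Brca2*, of homologous recombination, was at 8.53, 6.94, 8.45, and 8.25 CPM for WT, 8.93, 9.02, 8.94, and 7.23 CPM for DKO-moderate, and 17.9, 10.8, 18.8, and 19.4 CPM for DKO-severe. Its DKO-moderate libraries overlapped WT, with 0.084 (edgeR adjusted p = 0.781), and its DKO-severe libraries lay above both, with 1.06 (edgeR adjusted p = 0.000493) against WT and 0.97 (edgeR adjusted p = 0.00573) against DKO-moderate. *Blm*, the Bloom helicase, had the highest WT level per kb of the repair genes, 1.85 CPM per kb, and was at 16.8, 13.7, 15.4, and 18.97 CPM for WT, 12.9, 15.1, 16.3, and 18.7 CPM for DKO-moderate, and 21.6, 16.8, 21.4, and 25.8 CPM for DKO-severe, with overlapping groups. *Blm* had a log2 fold change of 0.40 (edgeR adjusted p = 0.0496, standard error 0.16), at the edge of the threshold, and did not pass without any one of WT 1, 2, or 3, DKO-moderate 2 or 3, or DKO-severe 1, 3, or 4.

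In DKO-moderate against WT, 24 of the 51 genes were higher and 1, *Rpa1*, was lower, against 12.3% and 4.74% of all genes tested. The median log2 fold change was 0.49, against 0.0 over all genes. All DKO-moderate libraries lay above all WT libraries for 31 genes, which held for 14.6% of all genes. The genes higher in DKO-moderate were all higher in DKO-severe too. Both comparisons share the WT libraries, and the share of all genes for which this held was not computed. The largest rises were those of *Mcm10*, *Orc1*, *Tk1*, *Chek1*, *Gins2*, and *Chaf1a*, between 1.63 and 2.04. Of the MCM2-7 genes *Mcm5* and *Mcm6* passed and the other 4 did not. Without WT 1, 15 genes were higher and 0 lower, and without DKO-moderate 4 the median log2 fold change was 0.35.

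In DKO-severe against DKO-moderate, 25 genes were higher and 0 lower, against 9.41% higher and 10.7% lower among all genes tested. None was lower in DESeq2 or limma voom, or in edgeR at an unadjusted p under 0.05 (0 in each), and those 2 tools called 39 higher. The median log2 fold change was 0.59, against -0.027 over all genes. All DKO-severe libraries lay above all DKO-moderate libraries for 12 genes, which held for 9.77% of all genes. These were *Mcm6*, *Pola1*, *Pole*, *Lig1*, *Rrm1*, *Clspn*, *Chek1*, *Brca1*, *Brca2*, *Fanca*, *Fancd2*, and *Exo1*, so that 5 of the 6 repair genes were among them. The repair genes had the highest median of the roles here, 1.14, with 5 of 6 past the threshold, and none of the 5 clamp genes passed in edgeR, at a median of 0.38 (3 passed at an unadjusted p under 0.05, 3 in DESeq2, and 3 in limma voom). In 20 genes all 3 comparisons were called higher, and in 5 DKO-severe was higher than both other groups while DKO-moderate was not called against WT. These 5 were *Mcm3*, *Pola1*, *Prim1*, *Dut*, and *Brca2*, of which *Dut* was called in DKO-moderate by DESeq2 and limma voom. The count of 25 rested on single libraries. It was 41 without DKO-moderate 4, 16 without DKO-moderate 1, 16 without DKO-moderate 3, and 29 without DKO-severe 1 and 2 together. With the neutrophil and B cell terms, which left 80 genes called of all tested, it was 0. Both marker lists set these groups apart. Neutrophil markers summed to at most 3.44 CPM in DKO-moderate and at least 9.26 in DKO-severe, and B cell markers to at most 4.22 and at least 49.8. The terms thus share part of the group difference, and this 0 alone does not show that the changes were absent. Under these terms the fold changes were 1.42 for *Pole*, 1.31 for *Lig1*, 1.94 for *Clspn*, 1.58 for *Exo1*, and 0.73 for *Mcm6* on the log2 scale. Of these 5 only that of *Mcm6* was below its value without the terms. *Orc1*, not among the 5, was slightly below too, at 1.158 against 1.161. None passed, with edgeR adjusted p of 0.0967 for *Pole*, 0.187 for *Mcm6*, and 0.363 for *Orc1*.

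The spread within the DKO groups came mostly from single libraries that were high or low across the genes. DKO-moderate 4 was the highest DKO-moderate library for 47 of 51 genes, DKO-severe 4 the highest DKO-severe library for 45, and DKO-severe 2 the lowest for 50. DKO-moderate 4 was above DKO-severe 2 for 39 genes. Relative to the mean of the WT libraries, the median log2 ratio over the 51 genes was 0.35, 0.34, 0.33, and 0.83 in DKO-moderate 1 to 4 and 1.20, 0.66, 0.96, and 1.32 in DKO-severe 1 to 4. The repair genes kept the groups apart, at 0.59 to 0.95 in DKO-moderate and 1.39 to 2.36 in DKO-severe, while the clamp genes did not, at 0.17 to 0.82 and 0.40 to 1.05. The 7 cycling cell markers, which are not among the 51 genes, summed to 75.6 to 141 CPM for WT, 220.3 to 387 CPM for DKO-moderate, and 494 to 1291 CPM for DKO-severe, with DKO-moderate 4, DKO-severe 4, and DKO-severe 2 again at the ends of their groups. All 7 markers were higher in each of the 3 comparisons. Their part in the result was not tested. The neutrophil markers summed to 2233, 819, 22.8, and 9.26 CPM in DKO-severe 1 to 4, where those medians were 1.20, 0.66, 0.96, and 1.32. The part of neutrophil reads in these levels was not tested. WT 3, the WT library with the most B cell reads, was the lowest WT library for 20 of the 51 genes, and WT 2 was lowest for 17.

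**Figure D2:**
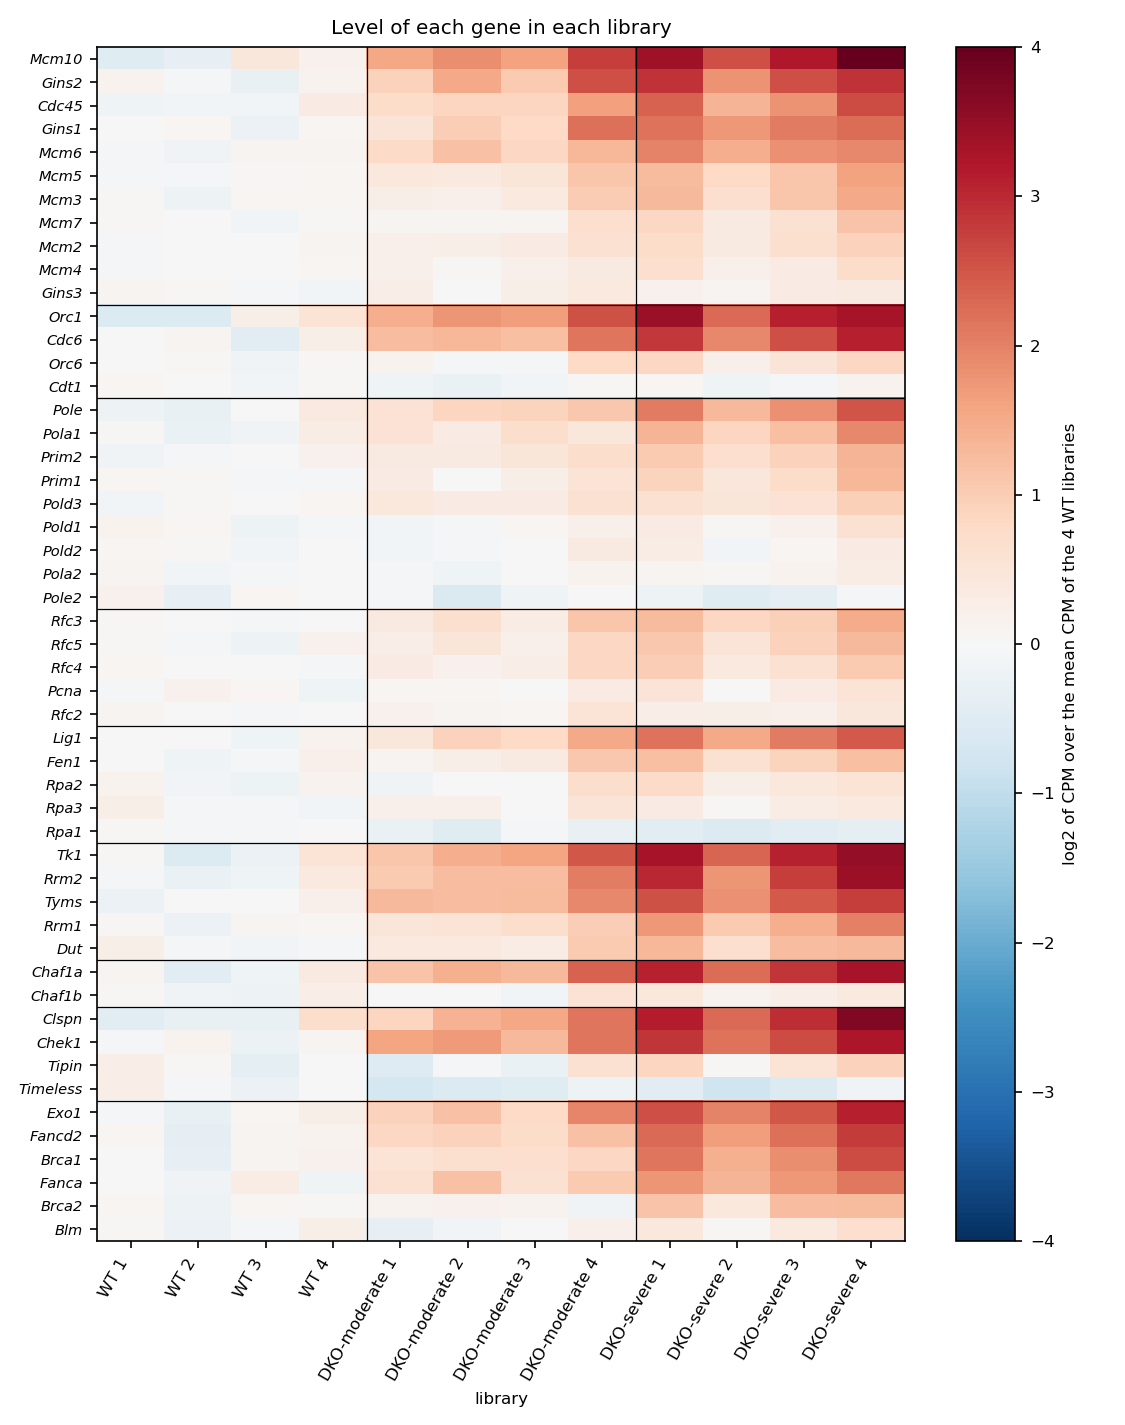
Level of each of the 51 genes (rows, grouped by role as in the plot of fold changes) in each of the 12 libraries (columns), as the log2 of its CPM over the mean CPM of the 4 WT libraries, from blue (lower) to red (higher). DKO-moderate 4 is darker than the other DKO-moderate libraries and DKO-severe 2 paler than the other DKO-severe libraries in most rows.

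**Figure D3:**
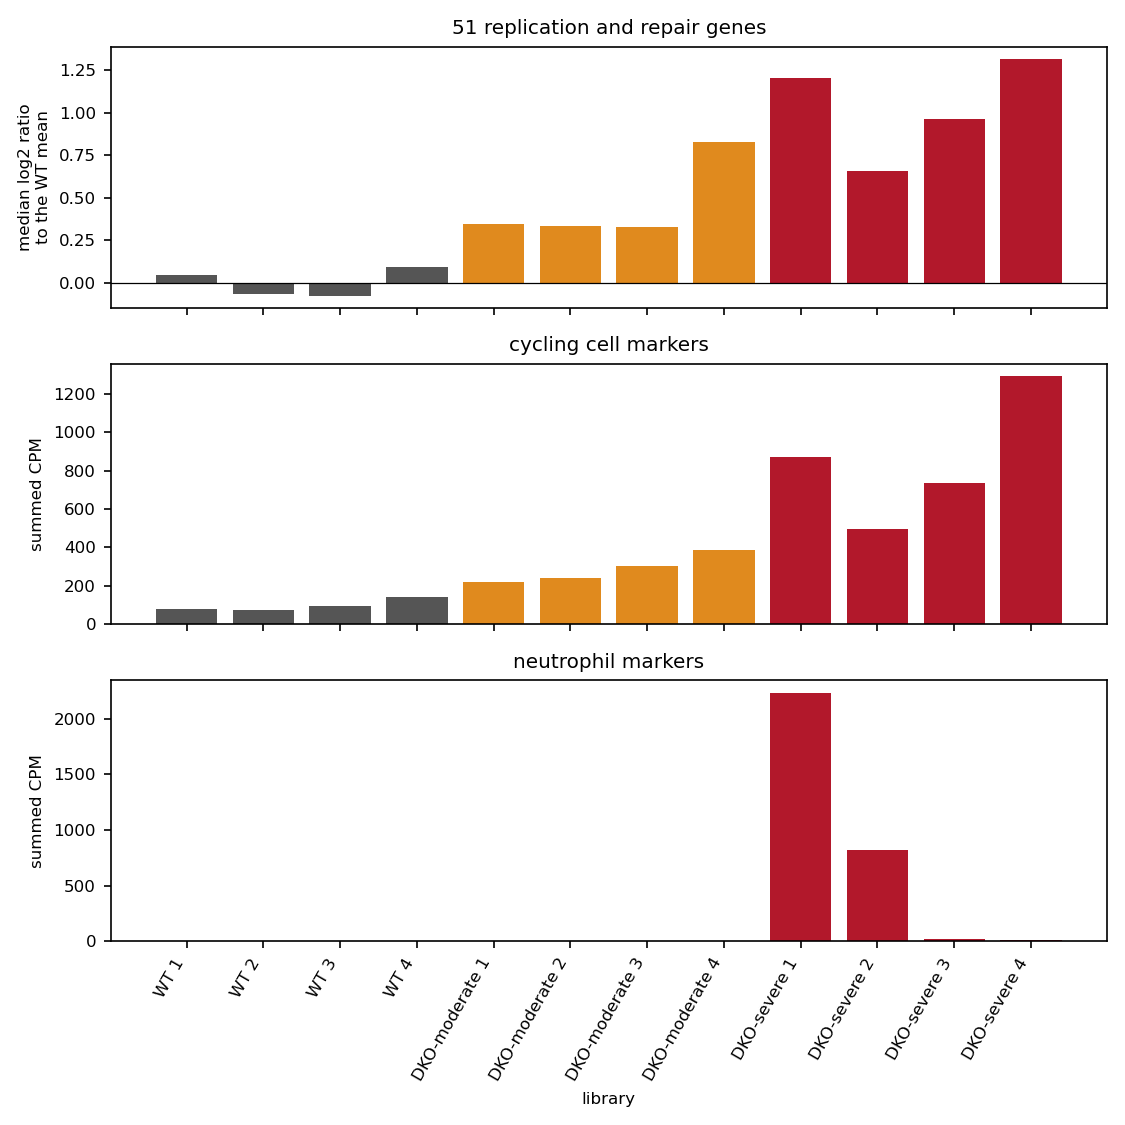
Per library (x axis, coloured by group), the median log2 ratio of the 51 genes to the WT mean (top), the summed CPM of the 7 cycling cell markers (middle), and the summed CPM of the 8 neutrophil markers (bottom). The top and middle panels are both lowest in WT and highest in DKO-severe 4, and neutrophil reads are highest in DKO-severe 1 and next in DKO-severe 2.

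Genes whose products work in 1 complex did not rise to the same extent. Within a library the ratio of 2 genes does not depend on scaling. For each complex the pair with the largest and smallest fold change was taken, and ratios are printed for a part of the complexes. They are a description, since the pairs were chosen by those changes. The reads ratio of *Chaf1a* to *Chaf1b* was 0.233 to 0.302 for WT, 0.634 to 0.961 for DKO-moderate, and 1.18 to 2.12 for DKO-severe, without overlap between groups. That of *Pole* to *Pole2* was 0.508 to 0.836, 1.01 to 1.77, and 2.27 to 3.91 in the same order, again without overlap. *Gins2* to *Gins3* was 0.242 to 0.33, 0.441 to 1.28, and 0.914 to 1.87, where the DKO groups overlapped. In these 3 complexes the gene that rose was the scarcer one in WT. Per kb of exon, *Chaf1b* was at 3.73 for WT, 4.09 for DKO-moderate, and 4.61 for DKO-severe CPM per kb and *Chaf1a* at 0.552 for WT, 1.72 for DKO-moderate, and 4.18 for DKO-severe, so that a 6.76-fold gap in WT was 1.10-fold in DKO-severe. The gap between *Pole2* and *Pole* went from 5.92-fold to 1.23-fold, and that between the highest and lowest of the 3 GINS genes from 5.41-fold to 1.48-fold. The fork protein genes *Clspn* and *Timeless* moved likewise, with a reads ratio of 0.0444 to 0.116 in WT and 0.592 to 1.002 in DKO-severe.

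Ribonucleotide reductase and MCM2-7 went the other way. *Rrm1* and *Rrm2* were close in WT, at 4.87 and 5.52 CPM per kb, and apart in DKO-severe, at 14.8 and 40.1 CPM per kb. Their reads ratio, *Rrm2* to *Rrm1*, was 0.238 to 0.356 for WT, 0.413 to 0.605 for DKO-moderate, and 0.47 to 0.762 for DKO-severe. The DKO groups thus overlapped. *Mcm6* was at 25.8 for WT, 52.8 for DKO-moderate, and 90.6 for DKO-severe CPM per kb and *Mcm4* at 32.4 for WT, 37.5 for DKO-moderate, and 45.7 for DKO-severe, so *Mcm4* led in WT and *Mcm6* in both DKO groups. The reads ratio of *Mcm6* to *Mcm4* was 0.952 to 1.10 for WT, 1.54 to 2.21 for DKO-moderate, and 2.38 to 2.93 for DKO-severe, without overlap. Over the 6 MCM2-7 genes the highest level per kb was 2.39 times the lowest in WT and 4.18 times in DKO-severe. In other complexes, the DKO groups also overlapped for *Rpa2* to *Rpa1* (0.164 to 0.308 and 0.27 to 0.358). The same held for *Pold3* to *Pold2* (1.09 to 1.35 and 1.15 to 1.42). For *Pola1* to *Pola2*, *Rfc3* to *Rfc2*, and *Orc1* to *Orc6*, none of the groups overlapped. Exon lengths were taken over all annotated exons, which sets the size of a gap between genes but not its change between groups.

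**Figure D4:**
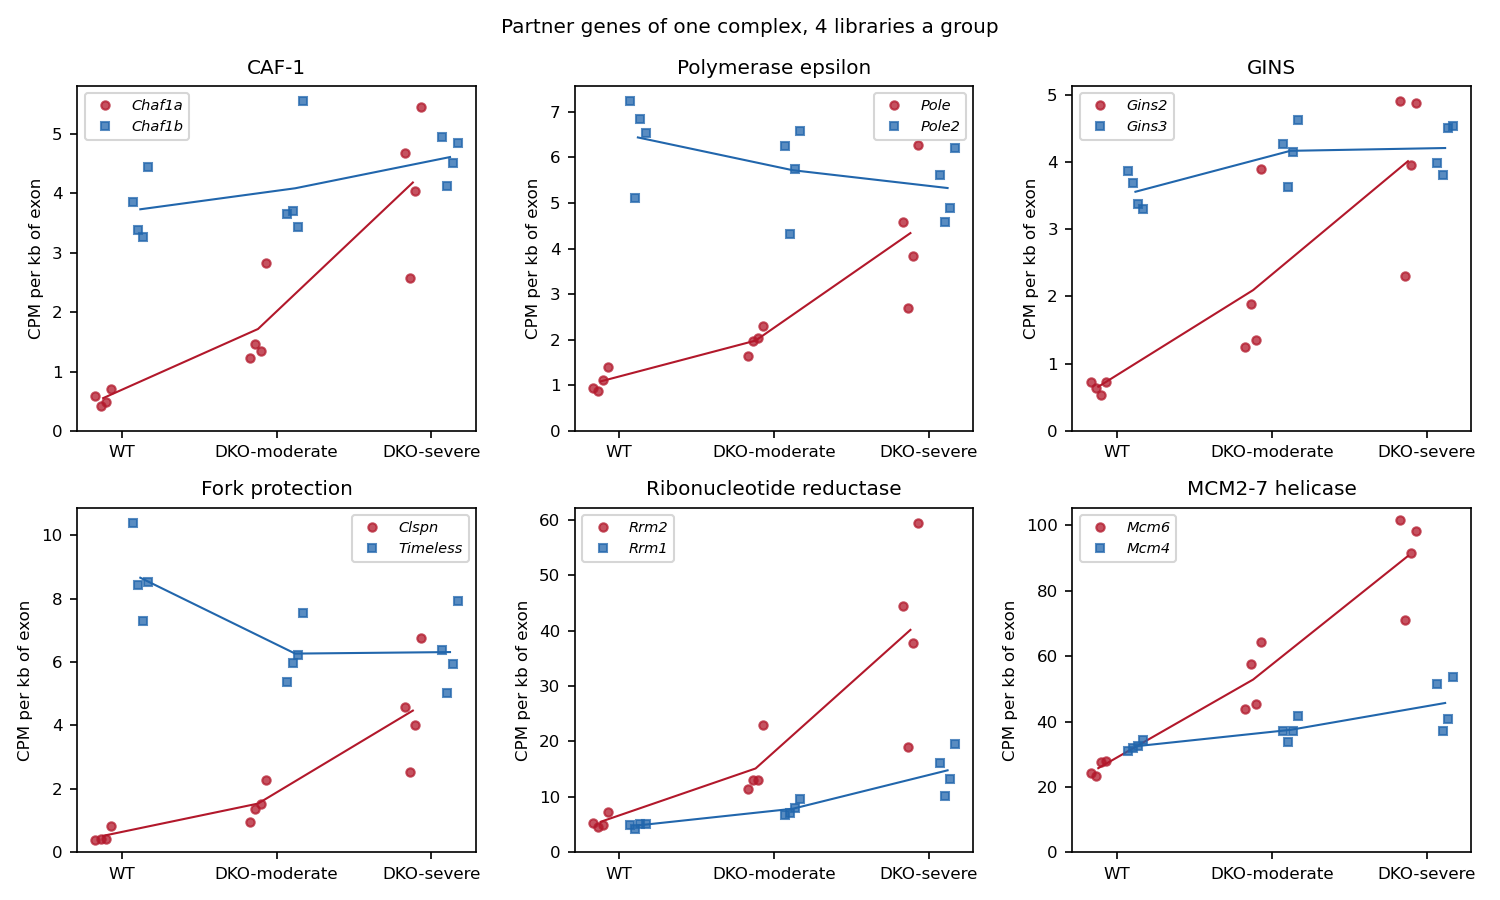
Level per kb of exon (y axis, CPM per kb, from 0) of pairs of partner genes in the 4 libraries of each group (points), with lines through the group means. In the CAF-1, polymerase epsilon, GINS, and fork protection panels the red gene starts far below the blue one and approaches it in DKO-severe, and in the ribonucleotide reductase and MCM2-7 panels the red gene moves away from the blue one.

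The genes scarcest in WT had the largest fold changes. In the 17 genes with the lowest WT levels per kb, from 0.192 to 1.58 CPM per kb, the median log2 fold change was 2.59 in DKO-severe against WT and 1.14 in DKO-severe against DKO-moderate, and all 17 were higher against WT. In the 17 genes with the highest levels, from 8.66 to 85.9 CPM per kb, the medians were 0.50 and 0.32, and 11 were higher and 2 lower against WT. Across the 51 genes the Spearman correlation of the WT level with the log2 fold change was -0.69 in DKO-severe against WT, where the WT libraries enter both measures, and -0.70 in DKO-severe against DKO-moderate, where they do not. Genes are not independent replicates, and low counts widen the spread of fold changes. *Rrm2*, *Lig1*, and *Mcm6* rose more than other genes of like level, and *Brca2* and *Blm* less.

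**Figure D5:**
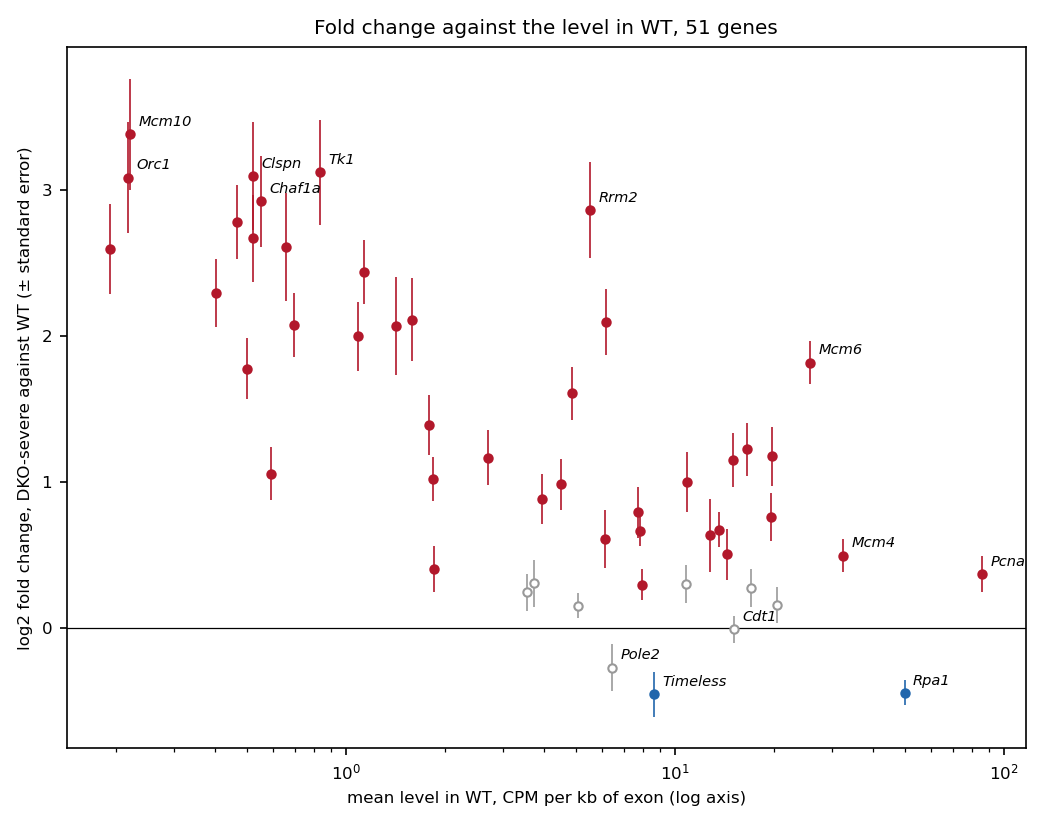
DKO-severe against WT as a log2 fold change (y axis, bars for the standard error) of the 51 genes against their mean level in WT (x axis, CPM per kb of exon, log scale). Filled red points were higher, filled blue points lower, and open grey points did not pass. Points fall from the upper left, where *Mcm10* and *Orc1* lie, to *Pcna* and *Rpa1* at the right.

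Other genes of the same pathways, from lists of genes outside the 51, moved in both directions. Of all genes tested 26.6% were higher and 25.9% lower in this comparison. Of 31 other replication genes tested, 13 were higher and 5 lower in DKO-severe against WT, with a median log2 fold change of 0.20. The largest rise was that of *Top2a*, the topoisomerase that untangles replicated DNA, with 2.90 (edgeR adjusted p = 1.32e-05, standard error 0.28), and the largest fall that of *Rnaseh2c*, a subunit of an RNase that removes ribonucleotides from DNA, with -0.46 (edgeR adjusted p = 0.0103, standard error 0.13). Of 15 other nucleotide synthesis genes, 3 were higher and 2 lower, with the largest fall in *Tk2*, the mitochondrial thymidine kinase, at -0.70 (edgeR adjusted p = 0.000358, standard error 0.11). *Tk2* thus fell where *Tk1*, the cytosolic enzyme, rose. Of 24 other genes of homologous recombination and the Fanconi pathway, 8 were higher, led by *Rad54l*, a motor protein of recombination, with 2.98 (edgeR adjusted p = 8.34e-06, standard error 0.26), and 1 was lower, *Rad52*, with -0.50 (edgeR adjusted p = 0.00131, standard error 0.099).

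In the remaining lists lower calls outnumbered higher ones. Of 25 excision and mismatch repair genes, 3 were higher and 11 lower in DKO-severe against WT, with a median log2 fold change of -0.19. *Ung*, uracil-DNA glycosylase, had the largest rise, 0.51 (edgeR adjusted p = 0.0451, standard error 0.20). *Xpc*, which recognises damage in nucleotide excision repair, had the largest fall and was at 51.2, 47.5, 49.3, and 53.2 CPM for WT, 36.4, 29.1, 40.2, and 33.8 CPM for DKO-moderate, and 19.7, 25.5, 25.7, and 24.4 CPM for DKO-severe. Its groups did not overlap, and the log2 fold change of *Xpc* was -1.08 (edgeR adjusted p = 1.92e-05, standard error 0.11) in DKO-severe and -0.53 (edgeR adjusted p = 0.00784) in DKO-moderate. Of 7 end joining genes 3 were lower in edgeR and 0 higher (0 higher also in DESeq2, in limma voom, and at an unadjusted p under 0.05), with the largest fall in *Prkdc*, the DNA-dependent kinase, at -0.69 (edgeR adjusted p = 0.0133, standard error 0.20). Of 12 damage signalling genes, 4 were higher and 6 lower. The largest rise was that of *Wee1*, a kinase that holds back mitosis, with 2.702 (edgeR adjusted p = 4.58e-06, standard error 0.20), and the largest fall that of *Rad9*, also named *Rad9a*, which encodes a subunit of the checkpoint clamp, with -0.93 (edgeR adjusted p = 5.55e-05, standard error 0.12).

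Fewer genes of these lists passed in DKO-moderate against WT, where 12.3% of all genes tested were higher and 4.74% lower. Of the other replication genes 4 were higher against WT and 0 lower in edgeR (1 lower at an unadjusted p under 0.05 and 0 in DESeq2 and limma voom), and of the homologous recombination and Fanconi genes 5 were higher and 0 lower (2 lower at an unadjusted p under 0.05 and 1 each in DESeq2 and limma voom). The nucleotide synthesis and the damage signalling lists each had 1 higher and 1 lower gene. Of the excision and mismatch repair genes 3 were lower and 0 higher, with 0 higher also in DESeq2, in limma voom, and at an unadjusted p under 0.05. None of the end joining genes passed in either direction (0 in edgeR, DESeq2, limma voom, and at an unadjusted p under 0.05). In DKO-severe against DKO-moderate, where 9.41% of all genes tested were higher and 10.7% lower, 8 other replication genes were higher and 1 lower, 5 homologous recombination and Fanconi genes higher and 2 lower, and 4 damage signalling genes higher and 1 lower. Here 4 excision and mismatch repair genes were lower and 0 higher in edgeR, where DESeq2 called 3 higher, limma voom 1, and an unadjusted p under 0.05 3. Of the nucleotide synthesis genes 1 was higher and 0 lower (1 lower at an unadjusted p under 0.05 and 0 in DESeq2 and limma voom), and of the end joining genes 1 was lower and 0 higher, with 0 higher in the other tools and at an unadjusted p under 0.05 too.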

How the data were processed

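The data are 12 bulk RNA-seq libraries of sorted CD4+ YFP(FOXP3)- T cells, 4 for each group. Per the labels and methods, the authors made directional libraries, used STAR 2.7.11 and mm10, kept uniquely aligned reads, and ran htseq-count in reverse-stranded mode. The annotation is not given in the sources used here. The deposited values are raw counts, and the authors named DESeq2 for their own comparisons. Records not assigned to a gene (18.5% to 23.7% of a library) were left out, and libraries of a group differed by far more than sampling noise. It is not stated beyond the library names that each came from a separate mouse, so p-values measure the spread between libraries.

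A gene was kept when its reads added up to 10 or more in at least 1 group (16035 of 26608 genes). All 12 libraries entered 1 edgeR 4.0.16 fit with TMM scaling and the quasi-likelihood test (R 4.3.3). P-values were adjusted by Benjamini and Hochberg's method across the 16035 genes, and calls were made at 0.05. The standard error is the log2 fold change divided by the square root of F. In simulated data with 200 changed genes among 15666, edgeR recovered 81% in DKO-severe against WT with 5.26% false calls, DESeq2 1.42.0 89.5% with 23.2%, and limma 3.58.1 voom 78.5% with 2.48%. The simulation drew each gene independently with edgeR's own estimates of the spread. It changed far fewer genes than were called in the data, so these rates need not hold there. Tables and plots used Python 3.11.15, pandas 2.3.3, and matplotlib 3.10.9. Coordinates and exon lengths are from GENCODE vM21 (GRCm38) and promoter windows from RefSeq (GRCm38.p6).

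The genes and lists were chosen with earlier results of these data known. Values in every library are given for the genes with the largest and smallest change of each role in DKO-severe against WT, the one with the highest WT CPM in roles of at least 4, and genes not past the threshold or lower. *Brca2* was added after its values were seen. The largest rise among the other nucleotide synthesis genes is not reported here. The tried alternatives were DESeq2, limma voom, other scalings and filters, other sets of libraries, a replicate block, terms for marker lists, a stricter threshold, and leaving out each library. Leaving out DKO-severe 1 and 2 together was chosen after seeing the data. *Ticrr* had no match, nor did 2 of the CD4 T cell markers. Of the marker lists, CD8 T cell genes summed to 16.8 to 26.7 CPM in WT and 1.03 to 13.2 in DKO-severe, germinal centre B cell genes to 12.9 to 22.3 and 44.03 to 67.3, and monocyte genes to 11.4 to 187 and 67.9 to 419.6.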

Additional observations from a re-analysis of the deposited data

Results flagged for a closer look

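In each group of 4 libraries of each gene (153 groups), a highest or lowest library was picked out when its gap to the nearest other took more of the range of the group than Dixon's 95% critical value, which chance gives for about 1 group in 20. This held for 19 groups. DKO-moderate 4 stood above the rest of its group for 11 genes. It was at 143 CPM for *Mcm5* (next library 93.1), 139 for *Mcm7* (94.5), 17.2 for *Cdc45* (10.1), 12 for *Cdc6* (6.93), 73.4 for *Rfc2* (55.8), and 69.5 for *Rpa2* (43.8). It was at 63.7 CPM for *Rrm2* (36.1), 26.3 for *Tyms* (16.8), 74.9 for *Dut* (47.3), 25 for *Chaf1a* (13), and 26 for *Chaf1b* (17.3). The same library was lowest for *Brca2*, at 7.23 CPM, when the other 3 were at 8.93 or more. Among the WT libraries, WT 1 was high for *Rpa3* (22.6 CPM, next 18.3) and *Dut* (42.4, next 34.6), and WT 4 for *Cdc45* (6.92, next 5.17) and *Clspn* (6.07, next 3.08). WT 2 was low for *Mcm3* (64.2 CPM, next 77) and *Fancd2* (2.42, next 3.39), and WT 3 for *Orc6* (13.7, next 15.5). No DKO-severe library was picked out. The cycling cell markers of DKO-moderate 4 summed to 387 CPM, the highest of its group, and their part in its values was not tested.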

How the results depend on the processing

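The median log2 fold change of the 51 genes stayed positive under every alternative, and leaving out single libraries moved it between 0.996 and 1.24 in DKO-severe against WT, 0.35 and 0.57 in DKO-moderate against WT, and 0.48 and 0.82 in DKO-severe against DKO-moderate. Between 31 and 47 genes passed as higher in DKO-severe against WT under each alternative run. The replicate numbers did not pair the libraries (median residual correlation -0.034 for the same number and 0.013 for different numbers), and with them as a replicate block 40, 27, and 30 genes were higher in the 3 comparisons and 0 were lower in DKO-moderate. Under the block *Pcna* in DKO-severe against WT (edgeR adjusted p = 0.0559) and *Rpa1* in DKO-moderate (0.0541) did not pass, and *Blm* in DKO-severe against DKO-moderate did (0.0424). The genes lower in DKO-severe against WT (2) were 1 with DESeq2's size factors, library size alone, an adjusted p under 0.01, or DKO-severe 1 and 2 left out, 0 with neutrophil and B cell terms, and 1 to 2 without single libraries. In DKO-moderate against WT, the 24 higher genes were 10 at an adjusted p under 0.01 and 15 to 26 without single libraries, and the 1 lower gene was 2 with DESeq2, limma voom, or filterByExpr, 0 with library size alone, no filter, a Y-linked term, or an adjusted p under 0.01, and 0 to 2 without single libraries. In DKO-severe against DKO-moderate, the 25 higher genes were 39 with DESeq2 or limma voom and 0 with the neutrophil and B cell terms. They were 8 at an adjusted p under 0.01 and 16 to 41 without single libraries. With those terms the log2 fold changes were 1.66 for *Mcm10*, 1.60 for *Tk1*, 1.58 for *Exo1*, 1.16 for *Orc1*, and 0.73 for *Mcm6*. Of all genes tested, 8428, 2734, and 3217 were called in the 3 comparisons. With the neutrophil and B cell terms 2868 were called in the first and 80 in the third, at an adjusted p under 0.01 1142 in the second and 926 in the third, and in the third 6126 with limma voom and 2114 without DKO-severe 1 and 2. Without single libraries they ranged over 7253 to 9006, 1616 to 2920, and 1646 to 3670. The causes were not tested.

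Single genes were followed only for the 25 named genes. Among these, reversals were limited to log2 fold changes near 0 that did not pass. *Cdt1* in DKO-severe against WT was at 0.073 with DESeq2 or its size factors, 0.068 with DKO-severe 1 and 2 left out, 0.17 with library size alone, 0.042 with only the groups compared, 0.039 with the neutrophil and B cell terms, and -0.046 to 0.069 without single libraries. In DKO-moderate against WT, library size alone gave 0.056 for *Pola2* and 0.038 for *Blm*, limma voom gave -0.032 for *Pold1*, -0.053 for *Pold2*, and -0.032 for *Chaf1b*, and the neutrophil and B cell terms gave -0.00050 for *Pold1*. Without single libraries these ranged over -0.084 to 0.024 for *Pola2*, -0.14 to 0.042 for *Blm*, -0.042 to 0.084 for *Pold1*, -0.070 to 0.11 for *Pold2*, and -0.059 to 0.22 for *Chaf1b*. In DKO-severe against DKO-moderate, *Pole2* was at 0.0080 with library size alone and 0.063 with those terms, and without single libraries *Pole2* ranged over -0.22 to 0.0096, *Gins3* over -0.046 to 0.10, *Rpa3* over -0.047 to 0.17, and *Timeless* over -0.075 to 0.15.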
